A study of Mus musculus with 18 samples.

Results

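The genes described here are 10 components of the circadian clock: *Arntl*, *Clock*, *Per2*, *Per3*, *Cry1*, *Cry2*, *Nr1d1*, *Nr1d2*, *Dbp* and *Ciart*. They were taken by gene symbol from a table of 48023 mouse genes, and each was found once. All are protein-coding: on GRCm38 *Arntl* lies at chr7:113207465-113314126, *Clock* at chr5:76209868-76304792, *Per2* at chr1:91415982-91459324, *Per3* at chr4:151003652-151044665 and *Cry1* at chr10:85131700-85185064. *Cry2* lies at chr2:92403646-92434043, *Nr1d1* at chr11:98767932-98775333, *Nr1d2* at chr14:18204054-18239127, *Dbp* at chr7:45705088-45710203 and *Ciart* at chr3:95878503-95882251. RNA was sequenced from an immortalized murine brown preadipocyte line, cells that were isolated from the stromal vascular fraction of brown fat, made to divide indefinitely with the SV40 T antigen and not induced to differentiate. The cells received vehicle (Veh) or fibroblast growth factor 6 (FGF6, a paracrine FGF) at 200 ng/ml for 4, 8 or 24 h, with 3 libraries in each of the 6 groups and 18 in all. The line is a single culture model, so no group represents separate animals. The labels do not say whether replicates were separate cultures, so every p-value measures the spread between these libraries, which may be technical.

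The mammalian clock is a feedback loop in which BMAL1 (the product of *Arntl*) and CLOCK form a dimer that binds E-box sequences and switches on the *Per* and *Cry* genes, whose proteins return to the nucleus and block the dimer. A second loop runs through the nuclear receptors REV-ERBα and REV-ERBβ (*Nr1d1* and *Nr1d2*), which are themselves E-box targets and repress *Arntl* through RORE sequences. *Dbp* encodes a PAR-bZIP activator that binds D-boxes in output genes, and *Ciart* (CHRONO) encodes a repressor of the BMAL1-CLOCK dimer. Cultured fibroblast-like cells carry this loop, serum and growth factors can reset its phase, and in brown fat REV-ERBα is known as a repressor of thermogenic genes.

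The promoter sequences below are shown because they hold the letters through which the loop is known to be wired. RefSeq windows on GRCm38.p6, from 250 bases before to 50 after an annotated start, were matched by symbol for 9 of the 10 genes (12 windows), all but *Per2*. Both strands were searched for the E-box CACGTG, the E′-box CACGTT, the D-box TTATGTAA, the cyclic AMP response element TGACGTCA and the RORE, and no matches overlapped. The bases before the start are printed 5′ to 3′ on the gene's strand for the 3 genes that held more than 1 match, and 30 bases around the match for *Arntl*, with the matched letters in capitals.
*Ciart*, chr3:95882229-95882478, minus strand: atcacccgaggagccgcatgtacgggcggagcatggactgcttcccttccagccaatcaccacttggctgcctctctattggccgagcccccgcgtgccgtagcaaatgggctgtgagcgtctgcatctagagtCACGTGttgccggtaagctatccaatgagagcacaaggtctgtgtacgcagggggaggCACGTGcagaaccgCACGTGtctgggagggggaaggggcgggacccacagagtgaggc
*Per3*, chr4:151044666-151044915, minus strand: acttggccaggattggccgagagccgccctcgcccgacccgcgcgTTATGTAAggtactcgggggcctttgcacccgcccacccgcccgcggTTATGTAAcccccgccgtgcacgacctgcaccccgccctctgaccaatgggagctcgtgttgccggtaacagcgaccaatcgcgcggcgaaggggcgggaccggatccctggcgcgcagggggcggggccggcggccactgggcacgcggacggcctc
*Cry1*, chr10:85185055-85185304, minus strand: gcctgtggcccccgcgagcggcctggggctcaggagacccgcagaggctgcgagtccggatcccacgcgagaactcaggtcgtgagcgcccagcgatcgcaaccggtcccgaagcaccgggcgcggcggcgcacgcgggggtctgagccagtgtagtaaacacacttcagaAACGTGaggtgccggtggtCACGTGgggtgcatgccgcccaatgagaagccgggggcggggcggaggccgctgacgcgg
*Arntl*, chr7:113207527-113207556, plus strand: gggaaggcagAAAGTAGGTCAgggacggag

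*Ciart* held 3 E-boxes, with first bases 116, 58 and 44 bases before its start. *Per3* held 2 D-boxes, 205 and 158 bases before its start. *Cry1* held an E-box 60 bases before the start and an E′-box on the opposite strand 79 bases before it, *Cry2* an E′-box 166 bases before and *Nr1d1* an E′-box 28 bases before. The single RORE match lay in *Arntl*, 26 bases after the start of one of its annotated transcripts. No letters of these kinds were in the windows of *Clock*, *Nr1d2* or *Dbp*, and no cyclic AMP response element was in any of the 9. Of all 32851 windows, 7.15% held an E-box, 4.68% an E′-box, 0.938% a D-box, 1.79% a cyclic AMP response element and 0.384% a RORE. A match is a description of the letters, not a bound site.

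**Figure D1:**
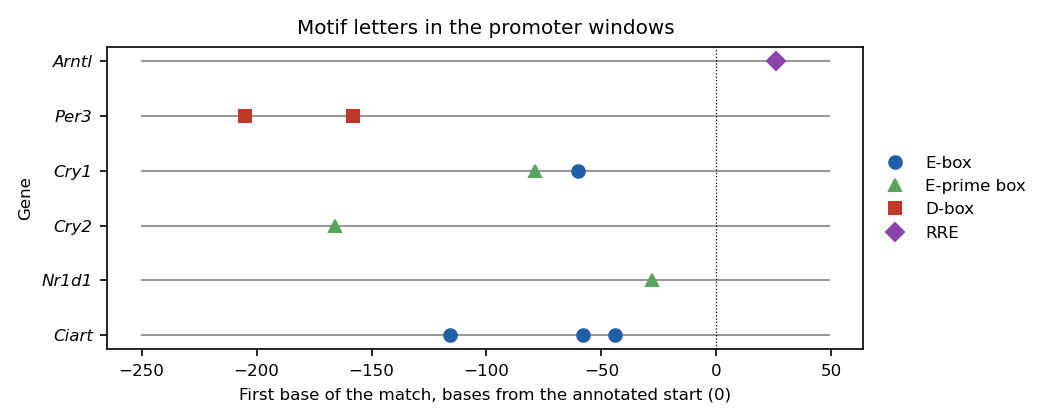
Positions of the motif letters in the promoter windows of the 6 clock genes that held any, in bases from the annotated start at 0. Each grey line is a window from 250 bases before to 50 after the start, and each marker is the first base of a match. The 3 E-boxes of *Ciart* lie 116, 58 and 44 bases before the start, and the RORE of *Arntl* is the match that lies after it.

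Total counts were 24327816 to 33471980 per library, and 3 counts, taken as the limit of what a library can show, were worth 0.0905 to 0.126 CPM (counts per 1000000, scaled with TMM factors). All 10 clock genes stood well above that limit, with 61 to 5060 counts in every library, and all 10 passed the filter on low counts among 15071 genes tested. A library of the vehicle group at 24 h, replicate 3, stood apart: its chi-square per degree of freedom against its mates was 38.0 and 41.2, against 2.44 to 7.62 for the other pairs of libraries in a group. In it 1.03% of the counts fell on the single gene CT010467.1, against 0.00768% to 0.0169% in the other 17. Results at 24 h were therefore also computed without it. Vehicle cells expressed all 8 stromal and preadipocyte markers, summed to 3451 to 4999 CPM, and these sums were lower with FGF6: 2173 to 2313 CPM at 4 h, 2402 to 2642 at 8 h and 908.5 to 988.2 at 24 h. *Col1a1* made up most of the vehicle sums (group means of 2237 to 3514 CPM), and *Cd34* of the same list was higher with FGF6 at 8 h (log2 fold change 0.46) and 24 h (1.38). Of the 6 mature brown adipocyte markers, *Ucp1* and *Cidea* were at 3 counts or fewer in all vehicle libraries. *Ucp1* had 17 to 25 counts in the FGF6 libraries at 24 h, where *Adipoq* and *Plin1* were at 0. In vehicle *Adipoq* had 11 to 23 counts a library and *Plin1* 20 to 60. *Adgre1*, *Itgam* and *Ptprc*, which define macrophages and blood cells, were at 3 counts or fewer in all 18 libraries. The 5 macrophage and blood cell markers summed to 8.142 to 13.42 CPM in all groups but FGF6 at 24 h, where they reached 40.69 to 43.95. That sum was nearly all *Cd14* (mean 41.58 CPM), while *Csf1r* was lower with FGF6 at 24 h (log2 fold change -1.77). The summed mature adipocyte markers were 109.5 to 205.8 CPM in vehicle and 72.0 to 103.6 with FGF6. *Fabp4* made up most of these sums, with group means of 92.37 to 160.1 CPM in vehicle and 66.87 to 92.94 with FGF6. *Lipe* had group means of 12.98 to 29.98 CPM in vehicle and 6.536 to 8.696 with FGF6. The 4 endothelial markers summed to 0.3765 to 1.669 CPM in vehicle and 1.96 to 5.654 with FGF6, and the 4 muscle markers to 5.044 to 8.334 and 1.179 to 4.232. The endothelial sum with FGF6 at 24 h was mostly *Cdh5* (mean 3.591 CPM, against 0.05819 in vehicle). *Kdr* was 1.088 against 0.8228 CPM and *Pecam1* 0.09626 against 0.0458, while *Tek* went the other way (0.0 against 0.1773 CPM). The part of these shifts in the clock gene results was not tested. In bulk RNA, fewer cells of a kind and less RNA per cell cannot be told apart.

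Levels between genes were compared as CPM per kilobase of annotated exon. On that scale *Cry1* was highest, with group means of 11.8 to 20.7 CPM per kb, followed by *Clock* with 7.26 to 12.1, *Nr1d1* with 3.07 to 10.8 and *Nr1d2* with 3.59 to 12.9. *Per2* was lowest, with 0.56 to 2.58 CPM per kb. The spread over conditions followed another order. The highest group mean exceeded the lowest 9.86-fold for *Dbp*, 4.62-fold for *Per2*, 4.50-fold for *Ciart*, 3.61-fold for *Nr1d2*, 3.51-fold for *Nr1d1* and 3.38-fold for *Per3*. The same ratio was 2.57 for *Cry2*, 2.52 for *Arntl*, 1.75 for *Cry1* and 1.66 for *Clock*. Abundance and spread thus did not go together throughout. *Cry1* and *Clock* were highest per kb and spread least, but *Nr1d1* and *Nr1d2* came next and spread 3.51-fold and 3.61-fold.

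**Figure D2:**
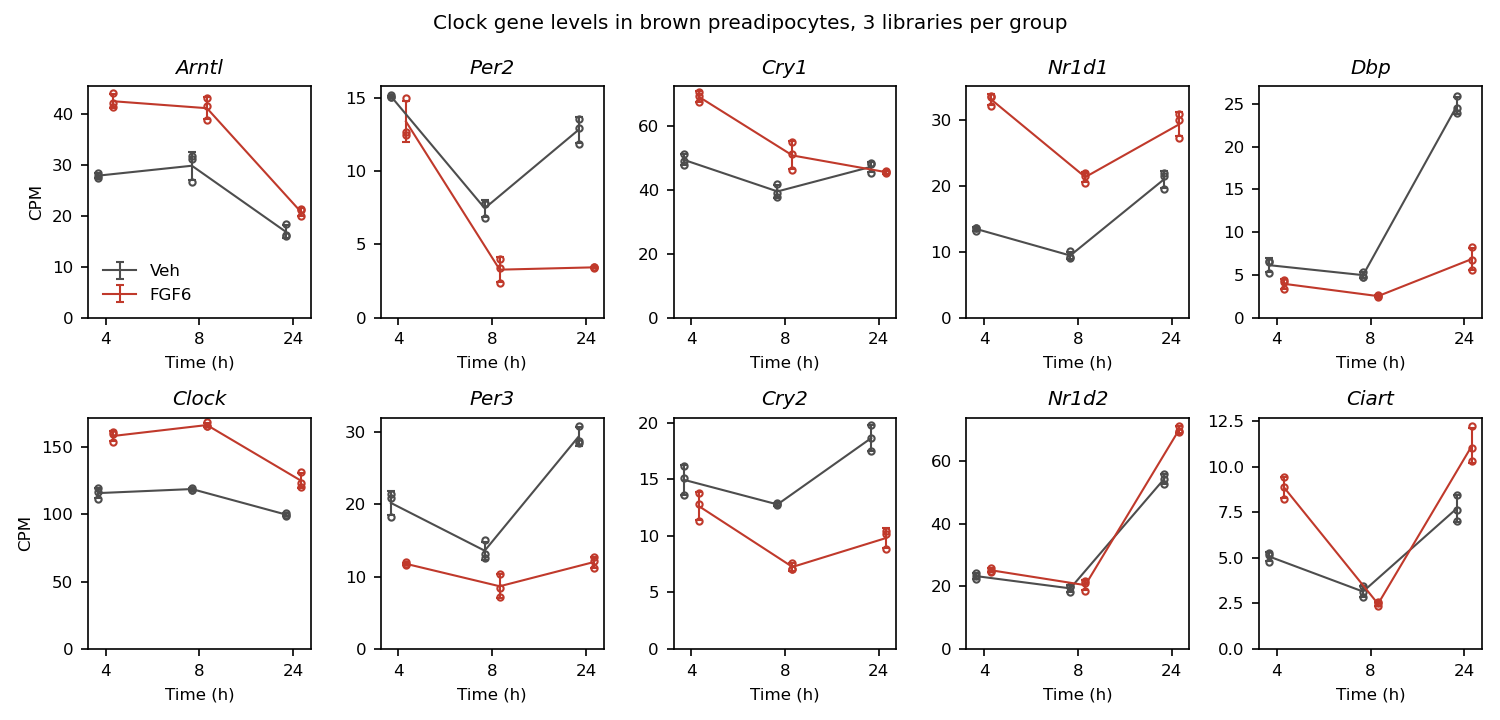
CPM of the 10 clock genes (vertical axis, from 0) at 4, 8 and 24 h in vehicle (grey) and FGF6 (red). Open circles are libraries, lines join group means and bars are SD (n = 3). *Dbp* reaches 24.75 CPM in vehicle at 24 h and 6.847 CPM with FGF6, while *Arntl* and *Clock* lie higher with FGF6 at every time.

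To describe the loop in cells that received vehicle alone, the times were compared within vehicle. Between 8 and 24 h all 10 clock genes changed: 8 rose and only *Arntl* and *Clock* fell (edgeR, false discovery rate under 0.05). Of all genes tested, 25.5% rose and 23.7% fell in the same comparison. The median log2 fold change was 0.95 over the clock genes and 0.00 over all genes, and the median size regardless of sign was 0.97 against 0.22. In each of the 10 genes the 3 libraries at 24 h lay clear of the 3 at 8 h. The share of all genes whose libraries were clear in this way was not computed, so no weight is placed on that count. Without replicate 3 at 24 h the count was again 8 higher and 2 lower. Time since treatment and time in culture cannot be told apart here. With no time sampled between 8 and 24 h, a change of level and a change of phase cannot be told apart either.

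*Dbp* showed the largest change of the 10 with time. Its vehicle levels were 6.62, 5.22 and 6.54 CPM at 4 h, 5.33, 4.8 and 4.76 CPM at 8 h, and 25.9, 24.5 and 23.9 CPM at 24 h. The 4 h and 8 h libraries overlapped and the 24 h libraries stood far above both. From 8 to 24 h *Dbp* rose 4.98-fold (log2 fold change 2.32 ± 0.11 SE, adjusted p = 9.26e-15), a larger change than in 99.6% of the genes tested. Without replicate 3 at 24 h the log2 fold change was 2.34.

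The REV-ERB genes and *Ciart* rose as well. *Nr1d2* was 18.2, 19.7 and 20.3 CPM at 8 h and 54.4, 52.7 and 55.8 CPM at 24 h, a 2.8-fold rise (log2 fold change 1.48 ± 0.05 SE, adjusted p = 4.19e-17). *Nr1d1* was 10.1, 9.25 and 9.003 CPM at 8 h and 22.0, 19.6 and 21.5 CPM at 24 h, a 2.22-fold rise (1.15 ± 0.07 SE, adjusted p = 4.61e-13). *Ciart* went from 2.84, 3.46 and 3.15 CPM to 7.64, 8.47 and 7.02 CPM, or 2.46-fold (1.30 ± 0.11 SE, adjusted p = 4.88e-10). All of these are genes that the BMAL1-CLOCK dimer is known to drive, as are the *Per* genes.

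Among the repressors of the main loop, *Per3* rose 2.16-fold between 8 and 24 h (log2 fold change 1.11 ± 0.09 SE), *Per2* 1.72-fold (0.78 ± 0.10), *Cry2* 1.46-fold (0.55 ± 0.08) and *Cry1* 1.19-fold (0.26 ± 0.05). The activators went the other way. *Arntl* fell from 31.7, 26.7 and 31.2 CPM at 8 h to 18.3, 16.2 and 16.1 CPM at 24 h, so that its level at 24 h was 0.566 of that at 8 h (log2 fold change -0.82 ± 0.07 SE, adjusted p = 1.61e-10). *Clock* was 119, 118 and 118 CPM at 8 h and 99.5, 101 and 98.4 CPM at 24 h, a small fall by 0.25 on the log2 scale (SE 0.03). Its libraries agreed closely enough that this change passed the test (adjusted p = 1.22e-06).

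**Figure D3:**
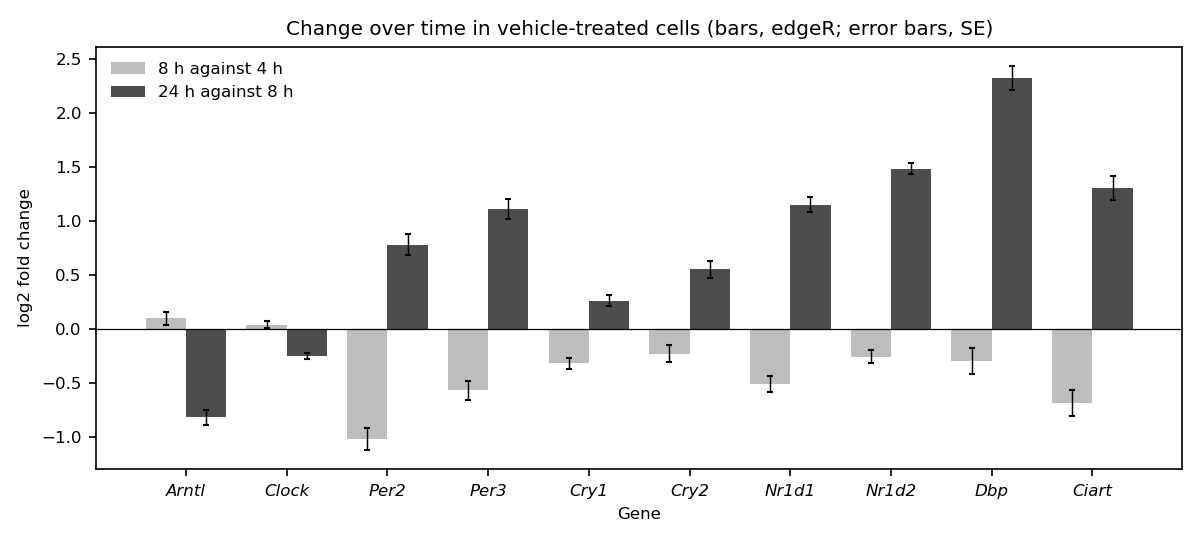
Log2 fold changes (vertical axis) of the 10 clock genes in vehicle-treated cells, 8 h against 4 h in light grey and 24 h against 8 h in dark grey, with SE. From 8 to 24 h *Arntl* and *Clock* are the 2 bars below 0, and *Dbp* is the tallest at 2.32.

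Between 4 and 8 h the clock genes in vehicle moved in the opposite sense. The median size of the log2 fold change was 0.31, against 0.97 from 8 to 24 h. *Per2* (-1.02 against 0.78) and *Cry1* (-0.32 against 0.26) moved by more in the earlier interval. Of the clock genes 7 fell and 0 rose, with 21.7% of all genes falling and 21.2% rising. The genes that fell were *Per2*, *Per3*, *Cry1*, *Cry2*, *Nr1d1*, *Nr1d2* and *Ciart*. *Per2*, an E-box target that is also an early response gene to serum and cyclic AMP, fell most: it was 15.1, 15.1 and 15.2 CPM at 4 h and 7.80, 7.82 and 6.81 CPM at 8 h, a fall by 1.02 on the log2 scale (SE 0.10, adjusted p = 9.85e-09). *Ciart* fell by 0.69, *Per3* by 0.57 and *Nr1d1* by 0.51. *Cry2* fell by 0.23 (adjusted p = 0.0235), a call lost on leaving out any 1 of 4 of the 6 libraries, with log2 fold changes from -0.23 to -0.17. *Arntl* (0.10, adjusted p = 0.218), *Clock* (0.04, adjusted p = 0.421) and *Dbp* (-0.30, adjusted p = 0.056) did not pass the test. *Dbp* did under DESeq2 (-0.31, adjusted p = 0.0412) and with no filter (-0.30, adjusted p = 0.043), and *Arntl* rose without replicate 2 at 8 h (0.17, adjusted p = 0.0257). With all libraries the number that rose was also 0 at an unadjusted p under 0.05, and under limma and DESeq2.

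Set against 4 h, the vehicle cells at 24 h had 6 clock genes higher and 3 lower, with 30.9% of all genes higher and 30% lower. *Dbp* was 4.05-fold higher and *Nr1d2* 2.33-fold higher, while *Nr1d1*, *Ciart*, *Per3* and *Cry2* were 1.25-fold to 1.56-fold higher. *Arntl* was lower by 0.72 and *Clock* by 0.21 on the log2 scale. *Per2* was lower (log2 fold change -0.23, adjusted p = 0.0369), but this call was lost without replicate 3 at 24 h (-0.20, adjusted p = 0.106) and without any 1 of 4 other libraries. *Cry1* did not pass the test (-0.07, adjusted p = 0.288). The 3 comparisons of times share libraries and are not independent of each other.

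To ask how FGF6 changed the loop, treated and vehicle cells were compared at each time. At 4 h 5 clock genes were higher with FGF6 and 3 lower, with 28.6% of all genes higher and 34.2% lower. At 8 h 4 were higher and 5 lower, with 32.4% and 38.4% of all genes. At 24 h 5 were higher and 4 lower, with 35.9% and 37.9% of all genes, and the counts at 24 h were the same without vehicle replicate 3. The median size of the log2 fold change regardless of sign was 0.55, 0.57 and 0.50 over the clock genes and 0.32, 0.41 and 0.48 over all genes. The clock genes therefore did not shift as a block: *Arntl*, *Clock* and *Nr1d1* were higher at all 3 times, *Per3*, *Cry2* and *Dbp* were lower at all 3, and *Per2*, *Cry1*, *Nr1d2* and *Ciart* depended on the time.

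**Figure D4:**
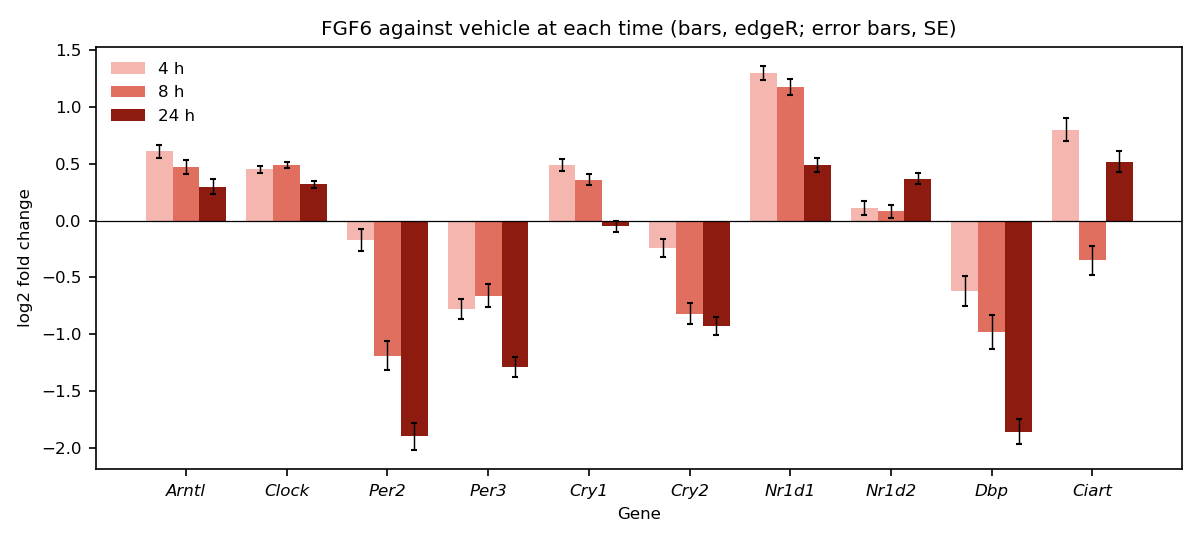
Log2 fold changes of FGF6 against vehicle (vertical axis) for the 10 clock genes at 4, 8 and 24 h, light to dark, with SE. *Nr1d1* is highest at 4 h (1.30), and *Per2* and *Dbp* reach -1.90 and -1.86 at 24 h.

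The activators were modestly higher with FGF6. *Arntl* was 27.4, 28.5 and 27.9 CPM in vehicle and 41.4, 44.1 and 42.1 CPM with FGF6 at 4 h, which is 1.52-fold (log2 fold change 0.61 ± 0.06 SE, adjusted p = 1.95e-09). At 8 h, with 43.2, 41.5 and 38.8 CPM in FGF6 against the vehicle values above, the difference was 1.38-fold. At 24 h, with 21.2, 19.9 and 21.3 CPM, it was 1.23-fold (0.30 ± 0.07 SE, adjusted p = 0.000354). At none of the 3 times did the groups overlap. In order of level, vehicle at 24 h was lowest, then FGF6 at 24 h, vehicle at 4 and 8 h, which overlapped, and FGF6 at 8 and 4 h, which overlapped.

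*Clock* followed *Arntl* in direction. At 4 h it was 116, 119 and 111 CPM in vehicle and 159, 153 and 161 CPM with FGF6, or 1.37-fold higher (log2 fold change 0.45 ± 0.03 SE). At 8 h FGF6 libraries held 165, 168 and 165 CPM, 1.40-fold above vehicle, and at 24 h 131, 123 and 120.5 CPM, 1.25-fold above vehicle. Each vehicle library lay below each FGF6 library at every time. From the lowest level up the order was vehicle at 24 h, vehicle at 4 and 8 h, which overlapped, then FGF6 at 24, 4 and 8 h.

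*Per2* was the member whose difference grew most. At 4 h it was 15.0, 12.5 and 12.7 CPM with FGF6, slightly under every vehicle library, and the difference did not pass the test (log2 fold change -0.17 ± 0.10 SE, adjusted p = 0.115). Under library sizes alone (-0.28, adjusted p = 0.0151) and upper-quartile factors (-0.23, adjusted p = 0.0378) it did. At 8 h it was 4.04, 2.39 and 3.41 CPM, which is 0.438 of vehicle (log2 fold change -1.19 ± 0.13 SE, adjusted p = 8.02e-09). At 24 h vehicle was at 13.6, 13.0 and 11.9 CPM and FGF6 at 3.39, 3.43 and 3.49 CPM, 0.267 of vehicle (-1.90 ± 0.12 SE, adjusted p = 2.07e-13). From the lowest up, FGF6 at 8 and 24 h overlapped, then came vehicle at 8 h, vehicle at 24 h and FGF6 at 4 h, which overlapped, and vehicle at 4 h.

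*Per3* was lower at all 3 times. FGF6 libraries held 11.8, 12.0 and 11.6 CPM at 4 h against 21.4, 18.3 and 20.9 in vehicle, and 8.40, 7.19 and 10.4 CPM at 8 h against 13.1, 12.6 and 15.0. At 24 h they held 12.7, 11.2 and 12.1 CPM against 30.8, 28.7 and 28.5 in vehicle. The log2 fold changes were -0.78 ± 0.09, -0.66 ± 0.10 and -1.29 ± 0.09 (SE), with adjusted p of 4.78e-08, 2.02e-06 and 1.1e-12. The groups did not overlap at any time. Over the 3 times FGF6 levels ranged from 7.19 to 12.7 CPM, and the 4 h and 24 h libraries overlapped. The latter also overlapped vehicle at 8 h, above which stood vehicle at 4 h and then at 24 h.

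The cryptochromes, the partners of the PER proteins in repression, parted from each other. *Cry1* was 47.8, 49.1 and 51.1 CPM in vehicle at 4 h and 67.3, 70.6 and 69.3 CPM with FGF6, or 1.40-fold higher (log2 fold change 0.49 ± 0.05 SE). At 8 h it was 1.29-fold higher (0.36 ± 0.05 SE, adjusted p = 1.07e-06), with 54.8, 51.3 and 46.1 CPM against 41.7, 39.1 and 37.6. At 24 h the groups overlapped at 45.4, 45.9 and 45.1 CPM against 45.3, 47.9 and 48.3, and the test was not passed (-0.05 ± 0.05 SE, adjusted p = 0.377). Vehicle at 8 h was lowest and FGF6 at 4 h highest, and between them each of the other 4 groups overlapped the next.

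*Cry2* was instead lower. At 4 h the difference was small and the libraries overlapped, with 11.3, 13.8 and 12.8 CPM against 15.1, 16.2 and 13.6 in vehicle (log2 fold change -0.24 ± 0.08 SE, adjusted p = 0.0125). That call was lost with only the 2 groups fitted (adjusted p = 0.0537), without FGF6 replicate 1 (-0.14, adjusted p = 0.165) and without vehicle replicate 2 (-0.18, adjusted p = 0.0926). At 8 h *Cry2* was 7.10, 7.63 and 7.03 CPM against 12.9, 12.8 and 12.7 in vehicle, and at 24 h 8.83, 10.2 and 10.4 CPM against 19.8, 18.6 and 17.5. These differences of -0.82 ± 0.09 and -0.93 ± 0.08 (SE) on the log2 scale had adjusted p of 1.21e-08 and 2.32e-10. FGF6 at 8 h was lowest, then FGF6 at 24 h, FGF6 at 4 h and vehicle at 8 h, which overlapped, and vehicle at 4 h and at 24 h.

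Of the REV-ERB genes, *Nr1d1* responded early. At 4 h it was 13.1, 13.7 and 13.6 CPM in vehicle and 33.6, 33.7 and 32.2 CPM with FGF6, a 2.46-fold difference (log2 fold change 1.30 ± 0.06 SE, adjusted p = 1.08e-15). At 8 h, with 21.6, 20.5 and 22.0 CPM with FGF6, it was 2.26-fold higher (1.18 ± 0.07 SE), and at 24 h, with 30.9, 29.97 and 27.3 CPM, 1.40-fold higher (0.49 ± 0.06 SE, adjusted p = 4.9e-08). Both treatments were lowest at 8 h, and the order ran from vehicle at 8 and 4 h through vehicle at 24 h and FGF6 at 8 h, which overlapped, to FGF6 at 24 h and 4 h.

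*Nr1d2* behaved differently. It was 23.2, 22.4 and 24.3 CPM in vehicle and 24.7, 24.9 and 25.8 CPM with FGF6 at 4 h (log2 fold change 0.11 ± 0.06 SE, adjusted p = 0.0831), and its 8 h libraries overlapped between treatments (0.08 ± 0.06 SE, adjusted p = 0.218). The 4 h difference passed the test under DESeq2 (0.13, adjusted p = 0.0496), with at least 10 counts in every library (0.14, adjusted p = 0.0283) and with only the 2 groups fitted (0.15, adjusted p = 0.0308). Leaving out FGF6 replicate 1 (0.15, adjusted p = 0.0431) or vehicle replicate 3 (0.14, adjusted p = 0.0483) at 4 h, or FGF6 replicate 3 at 8 h (0.18, adjusted p = 0.0066), also brought a call. At 24 h *Nr1d2* was 71.3, 69.6 and 69.3 CPM with FGF6, 1.29-fold above vehicle (0.37 ± 0.05 SE, adjusted p = 1.29e-07). Its order followed time: 8 h was lowest, with both treatments overlapping, then 4 h and 24 h, with FGF6 above vehicle at each.

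*Nr1d1* shares 263 of its 3077 exonic bases with *Thra*, a thyroid hormone receptor gene on the opposite strand. Whether strand was used in counting is not given in the sources used here. *Thra* moved against *Nr1d1* with FGF6: its log2 fold changes were -0.54, -1.32 and -1.91 at 4, 8 and 24 h, from vehicle means of 69.64, 95.03 and 113.2 CPM. In vehicle *Thra* rose between 8 and 24 h by 0.25 on the log2 scale and *Nr1d1* by 1.15. The part of *Thra* in the *Nr1d1* counts was not tested.

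*Dbp* was lower with FGF6 at all 3 times, and by most at 24 h. FGF6 libraries held 4.18, 4.37 and 3.29 CPM at 4 h, 2.64, 2.39 and 2.51 CPM at 8 h and 6.75, 5.57 and 8.22 CPM at 24 h. Against the vehicle values above, the levels were 0.650, 0.506 and 0.276 of vehicle, with log2 fold changes of -0.62 ± 0.13, -0.98 ± 0.15 and -1.86 ± 0.11 (SE) and adjusted p of 0.000225, 1.99e-06 and 2.52e-14. The highest FGF6 library at 24 h was thus under every vehicle library of that time by a wide margin. In order, FGF6 at 8 and 4 h were lowest, vehicle at 8 h, vehicle at 4 h and FGF6 at 24 h followed, each overlapping the next, and vehicle at 24 h was far above. Without vehicle replicate 3 the 24 h log2 fold change was -1.84. *Dbp* shares 539 of its 2993 exonic bases with *Sphk2* on the opposite strand. *Sphk2* was near 33.4 to 42.16 CPM in all groups, with log2 fold changes of -0.12 (adjusted p = 0.0552), -0.16 (adjusted p = 0.0101) and -0.28 (adjusted p = 4.39e-05) at the 3 times, and its part in the *Dbp* counts was not tested.

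*Ciart* was higher with FGF6 at the first and last times and lower between them. It was 5.25, 4.79 and 5.17 CPM in vehicle and 8.25, 8.86 and 9.43 CPM with FGF6 at 4 h (log2 fold change 0.80 ± 0.10 SE, adjusted p = 1.55e-07), then 2.57, 2.35 and 2.51 CPM with FGF6 at 8 h, under every vehicle library (-0.35 ± 0.13 SE, adjusted p = 0.0222). At 24 h it was 12.2, 11 and 10.3 CPM with FGF6, above every vehicle library (0.52 ± 0.09 SE, adjusted p = 1.99e-05). The 8 h call rests on 61 to 109 counts a library and was lost under limma with voom (adjusted p = 0.0598), DESeq2 (0.0673), no filter (0.077) and a fit of the 2 groups (0.0765). It was also lost without FGF6 replicate 2 (0.076) or 3 (0.0692) or vehicle replicate 2 (0.106). The log2 fold change stayed negative in each of these fits. The levels rose in order from FGF6 at 8 h through vehicle at 8 h and 4 h to vehicle at 24 h and FGF6 at 4 h, which overlapped, and FGF6 at 24 h.

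Whether the FGF6 effect of a gene differed between times was tested as an interaction in the same fit. Between 4 and 8 h the effect differed in 3 clock genes, *Per2*, *Cry2* and *Ciart*, and it was lower at 8 h in each. Of all 15071 genes 30.6% passed there in either direction (2335 higher, 2280 lower). Between 8 and 24 h the effect differed in 8 clock genes (2 higher, 6 lower), where 45.1% of all genes passed (3412 higher, 3385 lower). Between 4 and 24 h it differed in 9 (1 higher, 8 lower), where 53.5% passed (4263 higher, 3794 lower). The *Per2* effect moved down by 1.73 on the log2 scale between 4 and 24 h (adjusted p = 7.17e-10), the *Dbp* effect by 1.23 (adjusted p = 1.19e-06) and the *Nr1d1* effect by 0.81 (adjusted p = 1e-08). *Nr1d2* was the gene whose effect was higher at 24 h than at 4 h (0.26, adjusted p = 0.00413). The *Ciart* effect was higher at 24 h than at 8 h (0.87, adjusted p = 8.91e-05) and did not pass the test between 4 and 24 h (-0.28, adjusted p = 0.0949). The *Clock* effect at 24 h against 4 h was lower by 0.12 (adjusted p = 0.0308), a call lost under 4 alternative settings and on leaving out any 1 of 8 libraries. Under library sizes alone that of *Arntl* was also lost (-0.21, adjusted p = 0.0537), as was that of *Clock* at 24 h against 8 h (-0.10, adjusted p = 0.0957). These 3 comparisons share libraries. Without vehicle replicate 3 at 24 h the counts were 2 higher and 6 lower between 8 and 24 h, and 1 higher and 7 lower between 4 and 24 h.

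The other genes of the loop were followed as fixed lists. Of 13 further core loop factors, FGF6 raised 3 and lowered 4 at 4 h, 1 and 7 at 8 h, and 2 and 10 at 24 h. In vehicle 7 of them rose and 4 fell between 8 and 24 h. Of 10 kinases and turnover factors of clock proteins, 4 were higher with FGF6 at each time and 2, 3 and 4 were lower. Of 8 output genes 7 were tested: 3 were higher and 2 lower at 4 h and at 8 h, and 1 was higher and 6 lower at 24 h. In vehicle 5 of these rose and 2 fell between 8 and 24 h. Of all genes tested, 28.6%, 32.4% and 35.9% were higher with FGF6 at 4, 8 and 24 h, and 34.2%, 38.4% and 37.9% were lower. In vehicle 25.5% rose and 23.7% fell between 8 and 24 h. No weight is placed on list counts near these shares.

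*Tef*, a PAR-bZIP activator related to *Dbp*, was 58.7, 62.4 and 61.3 CPM at 4 h, 47.4, 50.5 and 53.2 CPM at 8 h and 138, 151 and 146 CPM at 24 h in vehicle. Like *Dbp* it rose between 8 and 24 h (log2 fold change 1.53 ± 0.05 SE, 2.88-fold) and was lower with FGF6 at 4, 8 and 24 h, by 0.62, 1.33 and 0.94 on the log2 scale. *Hlf*, the other PAR-bZIP gene, had 2 to 25 counts a library. It was lower at 24 h with FGF6 (log2 fold change -1.45 ± 0.46 SE, adjusted p = 0.00614) on 4 to 12 counts against 16 to 25, and did not pass the test at 4 h (-0.92, adjusted p = 0.106), at 8 h (-0.04, adjusted p = 0.939) or in vehicle at 24 h against 8 h (0.84, adjusted p = 0.0932).

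*Nfil3*, the repressor that competes with PAR-bZIP factors for D-boxes, was 50.6, 54.6 and 52.9 CPM in vehicle and 16.2, 16.2 and 14.2 CPM with FGF6 at 4 h. It was lower by 1.76, 1.78 and 1.05 on the log2 scale at 4, 8 and 24 h (SE 0.06 at each), and in vehicle it fell between 8 and 24 h by 0.61. *Dbp*, *Tef* and their competitor *Nfil3* were thus all lower with FGF6 at the 3 times, while in vehicle between 8 and 24 h *Nfil3* fell and the other two rose.

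*Bhlhe41* (DEC2), an E-box repressor, did not pass the test at 4 h (0.13, adjusted p = 0.136) and was lower by 0.26 at 8 h and 0.75 at 24 h on the log2 scale. Without FGF6 replicate 3 the 8 h call was lost (-0.16, adjusted p = 0.121), and without the 4 h library of that number the 4 h difference passed (0.23, adjusted p = 0.00981). Vehicle levels rose from 11.1, 11.9 and 12.3 CPM at 8 h to 24.6, 24.2 and 24.6 CPM at 24 h. *Bhlhe40* of the same list, named after its values were seen, had group means of 64.43 to 172.5 CPM. With FGF6 it was higher at 4 h (log2 fold change 0.71, adjusted p = 2.55e-14). It did not pass the test at 8 h (-0.08, adjusted p = 0.101) and was lower by 0.12 at 24 h (adjusted p = 0.00765). *Rora*, whose product activates through the RORE that REV-ERBs occupy, had 1.11, 0.908 and 1.23 CPM with FGF6 at 8 h against 2.59, 2.7 and 2.4 in vehicle (log2 fold change -1.25 ± 0.18 SE), and was lower by 0.94 at 24 h, but did not pass the test at 4 h (-0.14, adjusted p = 0.471). Its relative *Rorb*, named after its values were seen, was higher with FGF6 at 4, 8 and 24 h (0.62, 0.32 and 0.18 on the log2 scale), with group means of 18.8 to 28.82 CPM. *Npas2*, a paralog of *Clock*, had 11 to 21, 19 to 37 and 6 to 13 counts in vehicle at 4, 8 and 24 h and 1 to 2, 0 to 4 and 0 to 6 with FGF6. It was called lower at each time (adjusted p = 0.000249, 1.18e-05 and 0.0134), and no fold is given at these counts. The 24 h call was lost without FGF6 replicate 1 (adjusted p = 0.0739) or 3 (0.073) or vehicle replicate 1 (0.0605).

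*Csnk1e*, the kinase CK1ε that phosphorylates PER proteins and marks them for turnover, was the kinase with the clearest change. It was 69.5, 65.5 and 64.5 CPM in vehicle and 110.0, 107 and 106 CPM with FGF6 at 4 h, and 58.4, 54.3 and 54.8 against 122, 124 and 121 CPM at 24 h. It was 1.62-fold, 2.04-fold and 2.19-fold higher at 4, 8 and 24 h. *Bhlhe40*, *Bhlhe41*, *Tef*, *Rora* and *Csnk1e* each share some exonic bases with a gene on the opposite strand, so their counts carry the same limit as those of *Nr1d1* and *Dbp*. Of the 10 clock genes, *Cry2* (295 of 6320 exonic bases) and *Arntl* (33 of 7523) carry it as well.

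**Figure D5:**
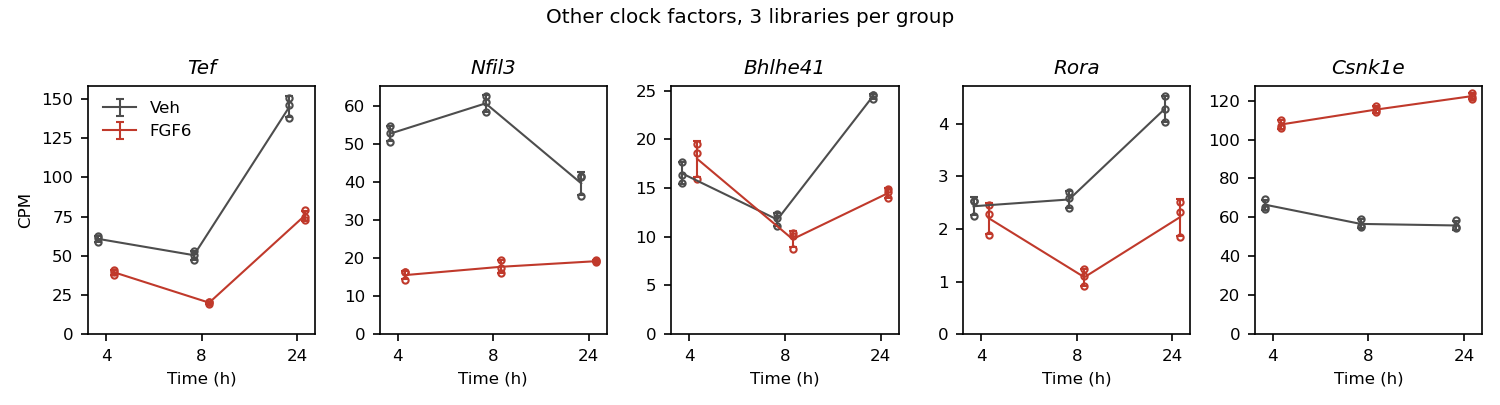
CPM of 5 further clock factors (vertical axis, from 0) at 4, 8 and 24 h in vehicle (grey) and FGF6 (red). Circles are libraries, lines join means and bars are SD (n = 3). *Tef* rises to 138 to 151 CPM in vehicle at 24 h, *Nfil3* stays under vehicle with FGF6 at every time, and *Csnk1e* lies above it.

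Across the 18 libraries, which share 6 conditions, log2 CPM of the clock genes was also correlated, as a description. *Dbp* and *Per3* went together (Pearson 0.89), as did *Per3* and *Cry2* (0.88), *Arntl* and *Clock* (0.87) and *Per2* and *Cry2* (0.83). *Arntl* and *Dbp* (-0.87), *Clock* and *Dbp* (-0.86) and *Clock* and *Per3* (-0.87) were opposed. *Arntl* and *Nr1d1*, the target and its known repressor, had a coefficient of 0.07. Among 12298 genes with a mean of at least 1 CPM, those most like *Dbp* were *Fads1* (0.980), *Dhcr7* (0.978) and *Ralb* (0.973). Those most like *Nr1d1* were *Dync1li1* (0.975), *Adam17* (0.968) and *Slc41a2* (0.967), and those most like *Arntl* were *Hnrnpdl* (0.983), *Plod3* (0.981) and *Mgp* (0.978). The nearest gene was *Cgref1* for *Clock* (0.983), *Pde8a* for *Per2* (0.981), *Cplx2* for *Per3* (0.971), *Rassf8* for *Cry1* (0.968), *Ankrd12* for *Cry2* (0.968), *Elovl6* for *Nr1d2* (0.977) and *Alkbh5* for *Ciart* (0.949). With this many genes and 6 conditions such values are reached by many pairs.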

How the data were processed

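RNA sequencing gave 18 libraries of brown preadipocytes, 3 per treatment and time. Per the labels, the authors deposited 1 table of raw gene counts, made with STAR and featureCounts (Subread) on GRCm38, with no normalization. Tool versions, the annotation release and the strand setting are not given in the sources used here. Identifiers were named with GENCODE M21 (47310 of 48023 matched).

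Counts were fitted with edgeR 4.0.16 in R 4.3.3: filterByExpr over the 6 groups, TMM factors, and the quasi-likelihood test on all libraries, with Benjamini-Hochberg adjustment over 15071 genes and calls at a false discovery rate under 0.05 (the study used 0.25 with limma). SE is the absolute log2 fold change divided by the root of F. CPM are counts per 1000000 of TMM-scaled totals. The procedure was tested on simulated data in which few genes changed, which does not cover data where many genes change, as here. Alternatives were limma 3.58.1 with voom, DESeq2 1.42.0, other scalings and filters, a replicate block and leaving out each library. Vehicle and FGF6 libraries of the same replicate number showed little shared deviation, and the labels do not say whether they were paired.

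The members and gene lists were chosen with earlier results of these data known. Listed genes were named when called with an absolute log2 fold change of at least 1 in an FGF6 or vehicle comparison, and 1 gene that met this rule is not reported here. Correlations used log2(CPM + 0.5).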

Additional observations from a re-analysis of the deposited data

Results flagged for a closer look

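The results below were picked out because the FGF6 effect of a gene differed between times in the interaction test (edgeR, false discovery rate under 0.05, 3 libraries per group). Values are differences between log2 fold changes, the later time minus the earlier.

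Between 4 and 8 h the effect moved by -1.15 for *Ciart*, -1.02 for *Per2* and -0.57 for *Cry2* among the 10 clock genes. Among the other named genes it moved by -1.11 for *Rora*, -0.71 for *Tef*, -0.39 for *Bhlhe41* and 0.33 for *Csnk1e*.

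Between 8 and 24 h the effect moved by 0.87 for *Ciart* and 0.29 for *Nr1d2*, and by -0.87 for *Dbp*, -0.71 for *Per2*, -0.69 for *Nr1d1*, -0.63 for *Per3*, -0.42 for *Cry1* and -0.16 for *Clock*. It moved by 0.72 for *Nfil3*, 0.39 for *Tef* and -0.49 for *Bhlhe41*.

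Between 4 and 24 h the effect moved by -1.73 for *Per2*, -1.23 for *Dbp*, -0.81 for *Nr1d1*, -0.69 for *Cry2*, -0.54 for *Cry1*, -0.51 for *Per3*, -0.31 for *Arntl* and -0.12 for *Clock*, and by 0.26 for *Nr1d2*. It moved by -0.88 for *Bhlhe41*, -0.80 for *Rora*, -0.32 for *Tef*, 0.71 for *Nfil3* and 0.44 for *Csnk1e*. The *Clock* difference had an adjusted p of 0.0308.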

How the results depend on the processing

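Of 90 clock gene results, 89 kept direction and side of the threshold under limma with voom, 87 under DESeq2 and 84 under library sizes alone. With 10 counts in every library it was 89, with no filter 87. A replicate block on numbers whose libraries showed little shared deviation (correlations of deviations -0.05 to 0.0455) changed 0 of 90, with 5 clock genes higher at 24 h with FGF6. Library sizes alone moved the median of all genes at 4 h from -0.05 to -0.15, and the share of calls that were higher from 45.5% to 33.3% there, from 51.8% to 36.4% in vehicle at 24 h against 8 h, and from 52.9% to 63.3% for the effect at 24 h against 4 h. The *Clock* effect at 24 h against 4 h lost its call under 4 settings and on leaving out any of 8 libraries, vehicle replicate 3 at 24 h included (-0.12, adjusted p = 0.0678). The cause was not tested.

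At a false discovery rate under 0.25, 1 clock gene rose in vehicle from 4 to 8 h, where 4496 of 15071 genes rose. At a rate under 0.05, 0 to 1 clock genes rose there on leaving out a library. At a rate under 0.25 the FGF6 effect at 8 h against 4 h was lower in 6 clock genes. Of the 15071 genes tested, 7397 were called there, 3596 of them lower and 3801 higher. Signs turned near 0. *Hlf* at 8 h gave 0.00 under DESeq2 and -0.23 to 0.27 without a library (0.10 without FGF6 replicate 2), and *Cry1* at 24 h -0.06 to 0.00. In vehicle *Csnk1e* at 24 h against 8 h gave -0.05 to 0.01. The *Nr1d2* effect at 8 h against 4 h gave 0.01 under library sizes alone and -0.07 to 0.05 without a library, and that of *Per3* -0.00 to 0.24. Low counts limit *Npas2* and *Hlf*.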
